A study of Homo sapiens with 4 samples.

Results

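The genes described here are 10 feedback genes that lie downstream of BCR-ABL in the ERK and STAT5 pathways, read in K562 cells after clofarabine. They were chosen by name, with earlier results of these data known, and all 10 were found among the 23615 genes of the deposited table. They are the MAP kinase phosphatases DUSP4, DUSP5 and DUSP6 and the Sprouty and Spred genes SPRY2, SPRY4 and SPRED2. The others are the STAT5 targets CISH, SOCS2 and PIM1, and ID1. K562 is an established human leukaemia line that carries the BCR-ABL fusion. The cells of the treated group received 5 µM clofarabine, a deoxyadenosine analogue that blocks DNA synthesis, in 0.005% DMSO, and those of the other group received DMSO. RNA was taken at 3 h, and each group had 2 samples. All values come from this 1 line, with no inhibitor of BCR-ABL in any group, and no protein or phosphorylation was measured.

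BCR-ABL is a constitutively active tyrosine kinase that signals through RAS, RAF, MEK and ERK and, in parallel, through STAT5. Both arms switch on genes that restrain them: ERK induces the DUSP phosphatases that dephosphorylate it and the Sprouty and Spred proteins that limit RAS and RAF, while STAT5 induces CISH and SOCS2, which act against cytokine receptor and JAK signalling. PIM1, a survival kinase, and ID1, an inhibitor of basic helix-loop-helix transcription factors, are further outputs of these pathways. Transcripts of several of these genes are short-lived and are often read as a gauge of pathway activity.

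The libraries are called V0 and V1 (DMSO) and C0 and C1 (clofarabine). The table gives the conditions only as C and V, read here as clofarabine and vehicle, so that every direction would turn around under the other reading. The labels do not say whether samples came from separate cultures, and if they did not, the p-values reflect technical spread alone. Estimated fragment counts summed to between 8370550 and 23888755 per library, and the 10 genes together took 6320 fragments in V0, 8547 in V1, 8844 in C0 and 15685 in C1. All 14 erythroid and K562 markers examined were detected in the tested set, with HBE1 at 13187 to 16019 CPM (CPM, fragment counts put on an equal library total adjusted by TMM); their differences between the groups are given beside those of PIM1. Markers of other cell types summed to between 95.01 and 101.9 CPM over 12 genes in each group's libraries, most of it EPCAM (70.8 to 75.2 CPM) and the T-cell gene CD3D (15.6 to 19.1 CPM). Of these 12 genes 2 were at 0 in every library, the B-cell marker MS4A1 and the endothelial marker CDH5, while PECAM1, another endothelial marker, had 0.90 to 1.78 CPM. None of the 5 that could be tested was called, and 0 had an unadjusted p under 0.05 in edgeR.

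Of the 10 feedback genes, 1 was called between the groups, PIM1, which was lower after clofarabine, and none was called as higher. Among all 11761 genes tested, 2.57% were called by edgeR's quasi-likelihood test, 1.03% as lower and 1.54% as higher; a gene was called where its p, adjusted over all genes by the Benjamini-Hochberg method, was under 0.05. With library sizes alone as the scaling, 45.9% of the called genes were higher, against 59.9% with TMM. Filtering on low counts kept 8 of the 10 genes; DUSP4 and DUSP6 had too few fragments in both groups. Each of those 8 had at least 31 fragments in every library, so none passed the filter through 1 group only. Their median log2 fold change was −0.080, beside 0.0020 over all genes tested, with 5 negative and 3 positive values. An unadjusted p under 0.05 in edgeR was found for 3 of the 8 (37.5%), PIM1, CISH and DUSP5, beside 14.2% of all genes tested. Libraries of 1 group stood apart from those of the other without overlap for 7 of the 8, lower in clofarabine for 5 and higher for 2; over all genes tested the groups did not overlap for 43.2%, lower for 21.3% and higher for 22%.

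Measured per transcript length, the genes spanned a wide range of levels. PIM1 stood highest with a mean of 150.6 FPKM over the 4 libraries (the authors' length-scaled unit), followed by ID1 (82.1 FPKM), SOCS2 (45.3 FPKM) and CISH (30.7 FPKM). SPRED2 had 11.99 FPKM, SPRY2 5.27 FPKM, SPRY4 3.42 FPKM and DUSP5 1.97 FPKM. Among these 8 no neighbours in the order overlapped in any library. DUSP6 (0.051 FPKM) and DUSP4 (0.047 FPKM) could not be ordered, since their libraries overlapped. In these cells the STAT5 outputs and ID1 were the abundant transcripts of the set, and the ERK phosphatases the scarce ones.

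**Figure D1:**
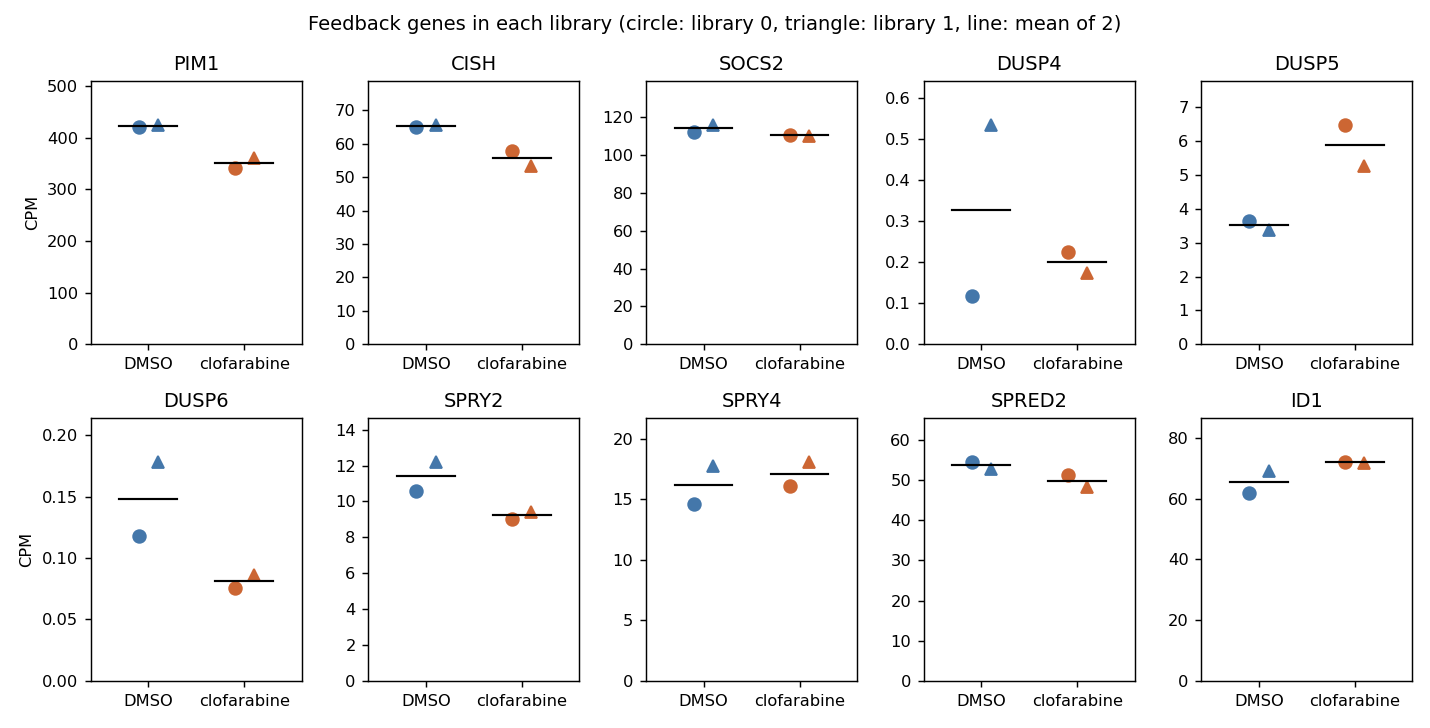
Level of each of the 10 genes in CPM (vertical axis, from 0, own scale per gene) in the 2 DMSO and 2 clofarabine libraries; points are libraries and lines are means of 2. PIM1, CISH, SPRY2, SPRED2 and SOCS2 were lower in both clofarabine libraries than in both DMSO libraries, and DUSP5 and ID1 were higher in both. SPRY4 overlapped, and DUSP4 and DUSP6 lay under 0.6 CPM throughout.

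Among the STAT5 targets, PIM1 was read at 421 CPM in V0 and 425 CPM in V1, and at 342 CPM in C0 and 362 CPM in C1. Both clofarabine libraries lay below both DMSO libraries, by a gap wider than that within either group. PIM1 fell by 16.7% (log2 fold change −0.26, SE 0.065, 95% interval −0.40 to −0.13, edgeR adjusted p = 0.0296), from 423 ± 2.66 to 352 ± 13.7 CPM (SD, n = 2 in each group). The size hardly moved when a library was left out, from −0.31 to −0.23, but the call was lost without V0 (edgeR adjusted p = 0.191) and without V1 (edgeR adjusted p = 0.320). On the log2(FPKM + 1) scale the log2 fold change was −0.26 and was not called either (limma adjusted p = 0.1499, and 0.147 with 0.1 in place of 1). Over 16 alternatives the adjusted p of PIM1 in edgeR, DESeq2 or limma ran from 5.7e-04 to 0.320, and 12 kept the call.

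Among erythroid markers, 2 were called as lower together with PIM1, beside 1.03% of all genes tested. Of the 14 erythroid and K562 markers, 13 had negative log2 fold changes and 1, HBE1, a positive one (0.13, edgeR adjusted p = 0.607), with a median of −0.066; 5 (35.7%, beside 14.2% of all genes tested) had an unadjusted p under 0.05 in edgeR. GATA1, the master transcription factor of the erythroid lineage, fell from 227 CPM in V0 and 222 CPM in V1 to 180 CPM in C0 and 197 CPM in C1 (log2 fold change −0.25, edgeR adjusted p = 0.0445), a change of about the size of that of PIM1. Its call was lost under 8 of 16 alternatives, among them leaving out C0 (edgeR adjusted p = 0.112), V0 (edgeR adjusted p = 0.263) or V1 (edgeR adjusted p = 0.254), and its adjusted p ran from 8.75e-04 to 0.263. HBA2, an alpha-globin gene, fell from 322 CPM in V0 and 383 CPM in V1 to 301 CPM in C0 and 272 CPM in C1 (−0.30, edgeR adjusted p = 0.0361), and without V1 it had −0.18 and was not called (edgeR adjusted p = 0.754), with adjusted p from 2.6e-06 to 0.754 over its 16 alternatives, 11 of which called it. Its near-identical copy HBA1, between which and HBA2 fragments can be split differently by the counting, had −0.26 (edgeR adjusted p = 0.0616) and was not called, though 6 of 16 alternatives called it. The part of these markers in the PIM1 difference was not tested.

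CISH, an SH2 and SOCS-box protein that STAT5 induces and that binds activated cytokine receptors, was read at 64.9 CPM in V0 and 65.7 CPM in V1, against 58.0 CPM in C0 and 53.5 CPM in C1. The groups did not overlap. The log2 fold change was −0.23 (SE 0.084, 95% interval −0.41 to −0.06), close to that of PIM1, but on fewer fragments, and it was not called (edgeR adjusted p = 0.180). None of its 16 alternatives called it either, the lowest adjusted p being 0.0531 with the library number as a block and the highest 0.700 without V1. SOCS2, which restrains growth hormone and cytokine signalling, was read at 112 CPM in V0, 116 CPM in V1, 111 CPM in C0 and 110 CPM in C1. Its libraries did not overlap only by a narrow gap of 0.022 on the log2 scale. The log2 fold change was −0.05 (95% interval −0.20 to 0.10, edgeR adjusted p = 0.834). This interval overlaps that of PIM1 (−0.40 to −0.13), and the difference between SOCS2 and PIM1 was not tested. Within the family of CISH and SOCS genes, SOCS2 made up between 42.1% and 44.5% of the summed FPKM of a library and CISH between 27.3% and 30.6%. A low-level antisense transcript, SOCS2-AS1, had between 0.90 and 1.64 CPM; whether counting used strand is not stated for these files, and without strand its fragments cannot be told from those of SOCS2.

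The upstream sequences of CISH and PIM1, the STAT5 targets with the lowest p-values of the 10 genes, are shown because STAT5 binds the palindrome TTCNNNGAA. They are the 250 bases before the transcription start in RefSeq (GRCh38.p14), for CISH chr3:50611775-50612024 on the minus strand and for PIM1 chr6:37169902-37170151 on the plus strand, written 5′ to 3′ along the gene, with capitals for each match to TTCNNNGAA.
CISH: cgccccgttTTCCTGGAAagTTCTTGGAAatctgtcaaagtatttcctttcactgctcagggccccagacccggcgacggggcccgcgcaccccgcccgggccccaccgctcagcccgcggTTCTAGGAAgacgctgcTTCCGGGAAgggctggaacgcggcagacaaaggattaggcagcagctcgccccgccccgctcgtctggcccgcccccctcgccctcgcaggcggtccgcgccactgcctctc
PIM1: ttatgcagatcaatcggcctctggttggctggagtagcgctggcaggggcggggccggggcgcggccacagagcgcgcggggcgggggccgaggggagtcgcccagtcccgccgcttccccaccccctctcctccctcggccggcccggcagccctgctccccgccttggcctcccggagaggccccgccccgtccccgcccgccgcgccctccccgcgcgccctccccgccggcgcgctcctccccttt

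CISH held 4 matches, beginning 241, 230, 129 and 112 bases before the start, and PIM1 held none in this window. The motif reads the same on both strands. Of 35116 upstream windows of the same length, 6.57% held at least 1 match and 5 held 4 or more. Sequences were matched for 7 of the 10 genes, in 10 windows because SPRY2 and SPRED2 have several starts; DUSP4, DUSP5 and SOCS2 were not matched. No window other than that of CISH held TTCNNNGAA. None of the 10 held the cyclic AMP response element TGACGTCA, found in 1.65% of all windows, or the ETS motif CCGGAAGT, found in 3.42%, both searched on either strand. These are matches of letters, with no binding measured.

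The ERK phosphatases were scarce. DUSP5, a nuclear phosphatase specific for ERK, had 31 fragments in V0, 38 in V1, 86 in C0 and 122 in C1, which is 3.65 CPM and 3.39 CPM in DMSO and 6.48 CPM and 5.28 CPM in clofarabine. Both clofarabine libraries lay above both DMSO libraries. Its log2 fold change of 0.73 was the largest of the 8 tested genes in size, at 1.66-fold, and also the least precise (SE 0.27, 95% interval 0.16 to 1.29). It was not called (edgeR adjusted p = 0.195, unadjusted p = 0.0137), nor under any of its 16 alternatives, whose adjusted p lay between 0.116 and 0.715. Leaving out a library gave values from 0.59 without C0 to 0.88 without C1. The DUSP5 pseudogene DUSP5P1 had 1 fragment in C1 and none in the other libraries.

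DUSP6, the cytoplasmic ERK phosphatase that is widely used as a readout of ERK activity, had 1 fragment in V0, 2 in V1, 1 in C0 and 2 in C1. All 4 values lie under the floor of 3 fragments per library, which corresponds to between 0.13 and 0.35 CPM, so no fold is given. DUSP4, a nuclear phosphatase of ERK and other MAP kinases, had 1 fragment in V0, 6 in V1, 3 in C0 and 4 in C1. The ratio of clofarabine to DMSO from the 7 fragments in each group was 0.542, with an exact 95% counting interval from 0.162 to 1.81. These limits cover counting error only and leave out the spread between libraries. With no filter, edgeR gave DUSP4 a log2 fold change of −0.79 (SE 1.29, adjusted p = 0.890). For neither gene was a difference detectable at this depth.

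Of the Sprouty and Spred genes, none was called. SPRY2, an inhibitor of receptor signalling to RAS, was read at 10.6 CPM in V0, 12.2 CPM in V1, 9.04 CPM in C0 and 9.43 CPM in C1. The clofarabine libraries were both lower, with a log2 fold change of −0.31 (SE 0.17, 95% interval −0.67 to 0.05, edgeR adjusted p = 0.453), and leaving out a library moved it between −0.40 without V0 and −0.20 without V1. SPRY4, which acts on RAF and RAS activation, was read at 14.6 CPM in V0, 17.8 CPM in V1, 16.1 CPM in C0 and 18.1 CPM in C1. It was the only tested gene of the set whose groups overlapped, and its log2 fold change of 0.08 (95% interval −0.22 to 0.38, edgeR adjusted p = 0.877) changed sign without C1 (−0.02) and without V0 (−0.04). SPRED2, which brings neurofibromin to the membrane to switch RAS off, was read at 54.6 CPM in V0, 52.7 CPM in V1, 51.3 CPM in C0 and 48.2 CPM in C1. The groups were separated by only 0.039 on the log2 scale, with a log2 fold change of −0.11 (95% interval −0.29 to 0.07, edgeR adjusted p = 0.647) that moved between −0.15 without C0 and −0.07 without C1.

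Within the Sprouty family, SPRY2 made up 64.3% and 63.1% of the summed FPKM in V0 and V1, and 58.0% and 56.3% in C0 and C1. SPRY4 made up 35.7% and 36.9% in DMSO and 41.6% and 43.5% in clofarabine. SPRY3 had no fragment and SPRY1 at most 0.0754 CPM. These shares describe the libraries and were not tested.

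ID1, induced by BCR-ABL signalling and by bone morphogenetic proteins through SMADs, was read at 61.9 CPM in V0, 69.0 CPM in V1, 72.2 CPM in C0 and 71.9 CPM in C1. The clofarabine libraries nearly coincided and both lay just above V1, while V0 was lower. The log2 fold change was 0.13 (SE 0.083, 95% interval −0.04 to 0.31, edgeR adjusted p = 0.513), and ID1 was not called. It was 0.06 without V0 and 0.21 without V1, and 0.08 once a trend of each library on transcript length was removed. Its relatives ID2 (0.11, edgeR adjusted p = 0.794) and ID3 (0.18, edgeR adjusted p = 0.653) were not called either, though ID3 was without C0 (0.40, edgeR adjusted p = 0.032), and ID4 had a fragment in V0 only.

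**Figure D2:**
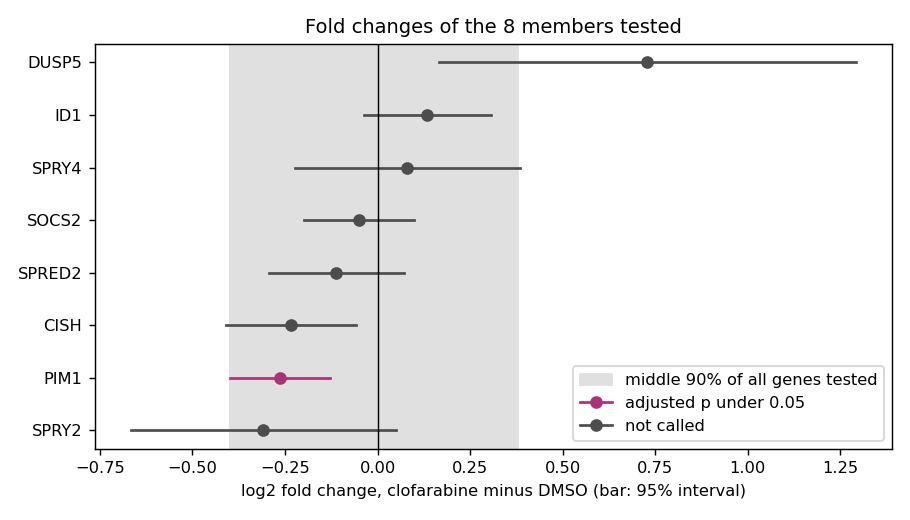
Log2 fold change of clofarabine against DMSO (horizontal axis) with its 95% interval for the 8 tested genes, over a grey band from −0.40 to 0.38 that holds the middle 90% of all genes tested. DUSP5 at 0.73 is the only point outside the band, and has the widest interval, and PIM1 at −0.26 is the only one called.

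**Figure D3:**
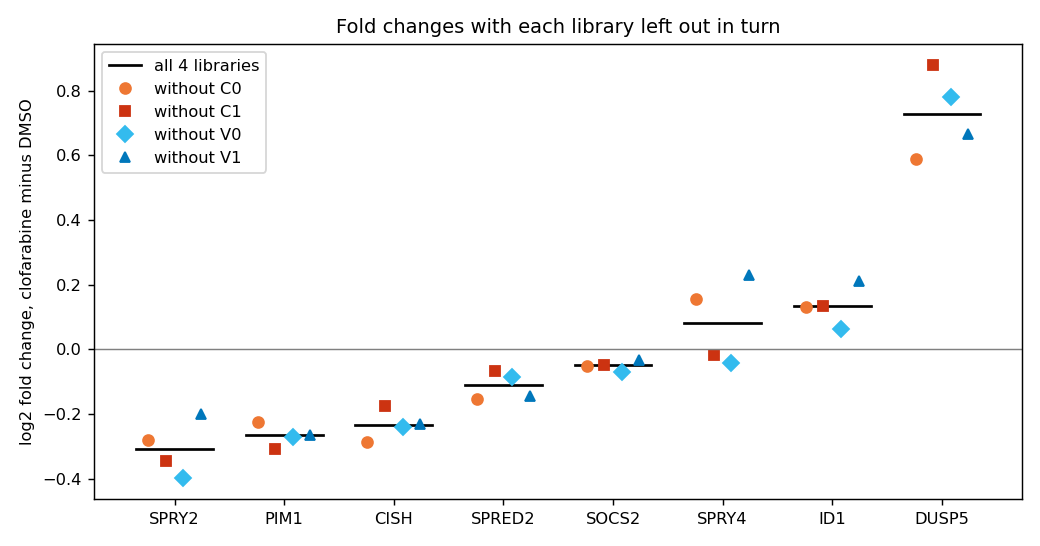
Log2 fold change of the same 8 genes with all 4 libraries (black line) and with each library left out in turn (symbols). PIM1 kept between −0.31 and −0.23 and DUSP5 between 0.59 and 0.88, while SPRY4 lay on both sides of 0.

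The listed genes of the path from BCR-ABL to ERK, some of which restrain it, showed no called change. All 26 listed BCR-ABL adaptors and members of the RAS, RAF, MEK and ERK cascade were tested, and by edgeR 0 were called, with 4 (15.4%) at an unadjusted p under 0.05, beside 14.2% of all genes tested. Their median log2 fold change was −0.045. The smallest p was that of KSR1, a scaffold for RAF, MEK and ERK, read in DMSO at 24.0 CPM and 22.8 CPM and after clofarabine at 20.3 CPM and 16.8 CPM (log2 fold change −0.35, edgeR adjusted p = 0.222). ABL1, which shares exons with the fusion transcript, had a log2 fold change of −0.15 (edgeR adjusted p = 0.335), and BCR one of −0.08 (edgeR adjusted p = 0.745). DESeq2 and limma-voom called 0 of the 26 as well.

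Other brakes on MAP kinases and receptors were listed with 18 genes, of which 13 were tested, 0 called by edgeR and 4 (30.8%) at an unadjusted p under 0.05, beside 14.2% of all genes tested. Their median log2 fold change was 0.043. DUSP3, a small phosphatase of ERK and JNK, had the smallest p, at 25.1 CPM in V0, 34.7 CPM in V1, 40.1 CPM in C0 and 37.4 CPM in C1 (log2 fold change 0.36, edgeR adjusted p = 0.153). DUSP3 was called under 3 alternatives, among them without V1 (0.62, edgeR adjusted p = 0.00658) and after removal of a transcript-length trend (0.37, edgeR adjusted p = 0.0491). DUSP1, an immediate early nuclear phosphatase, had a log2 fold change of 0.40 (edgeR adjusted p = 0.179), with 13.1 CPM and 15.3 CPM in DMSO and 19.6 CPM and 18.1 CPM in clofarabine. SPRED1, the paralog of SPRED2, had one of −0.32 (edgeR adjusted p = 0.205). Over the whole DUSP family, 17 of 24 genes in the table were tested and 0 were called, and DUSP5 made up only 0.77% to 1.51% of its summed FPKM. DESeq2 and limma-voom also called 0 of the 13.

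Among 22 further genes listed here as targets of ERK, 20 were tested, with a median of 0.038. The list also holds factors that ERK phosphorylates, such as ELK1. By edgeR, 1 was called as higher and 1 as lower, beside 1.54% and 1.03% of all genes tested, and 18 were not called. An unadjusted p under 0.05 in edgeR was found for 6 (30%), beside 14.2% of all genes tested. The groups did not overlap for 13 of the 20, higher in clofarabine for 8 and lower for 5. Over all genes tested 22% were higher and 21.3% lower without overlap. Among the 8 were the immediate early genes IER2 (0.21, edgeR adjusted p = 0.184) and FOSL1 (0.37, edgeR adjusted p = 0.227), which were not called. JUNB, an AP-1 subunit, rose from 33.4 CPM in V0 and 33.5 CPM in V1 to 44.9 CPM in C0 and 44.0 CPM in C1 (log2 fold change 0.41, edgeR adjusted p = 0.025). That call was lost with DESeq2 (adjusted p = 0.118), on the log2(FPKM + 1) and log2(FPKM + 0.1) scales (limma adjusted p = 0.0689 and 0.0626), without V0 (edgeR adjusted p = 0.0812) and without V1 (edgeR adjusted p = 0.210), and its adjusted p over all alternatives lay between 8.5e-04 and 0.210. MYC, a growth-promoting transcription factor that is also listed as a STAT5 target, fell, with a log2 fold change of −0.63 (edgeR adjusted p = 1.9e-06) that all 16 alternatives called. ETV4 (−0.10, edgeR adjusted p = 0.722) and ETV5 (−0.09, edgeR adjusted p = 0.812), ETS factors that usually follow ERK activity together with DUSP6 and the Sprouty genes, were not called. ETV1, a further ETV gene of the list, had −0.39 (edgeR adjusted p = 0.173) without overlap between the groups and was not called either.

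In the STAT5 arm, 19 of 22 JAK-STAT components and phosphatases were tested, and edgeR, DESeq2 and limma-voom called 0, with 2 (10.5%, beside 14.2% of all genes tested) at an unadjusted p under 0.05 in edgeR and a median of −0.075. The smallest p was that of PIAS1, an inhibitor of STAT proteins (−0.26, edgeR adjusted p = 0.311). STAT5A stood at 346 CPM and 367 CPM in DMSO and 305 CPM and 347 CPM in clofarabine (−0.13, edgeR adjusted p = 0.449; called without C1 at −0.23, edgeR adjusted p = 0.0373), and STAT5B at 220 CPM and 227 CPM against 202 CPM and 207 CPM (−0.13, edgeR adjusted p = 0.364). All 6 other SOCS genes were tested and 0 were called by edgeR, DESeq2 or limma-voom, with 1 (16.7%, beside 14.2% of all genes tested) at an unadjusted p under 0.05 in edgeR, SOCS7 (−0.37, edgeR adjusted p = 0.136), and a median of −0.052. SOCS7 was called under 1 alternative, with the library number as a block. SOCS3, a STAT-induced inhibitor of JAK, had a log2 fold change of −0.10 (edgeR adjusted p = 0.787).

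Of 15 other STAT5 targets, 12 were tested, with a median of −0.088. By edgeR, 2 were called as lower, MYC and BCL2L1, beside 1.03% of all genes tested, and none as higher, beside 1.54%. An unadjusted p under 0.05 in edgeR was found for 2 (16.7%), beside 14.2% of all genes tested. BCL2L1, which encodes the survival protein BCL-XL, fell from 231.3 CPM in V0 and 231.0 CPM in V1 to 187 CPM in C0 and 197 CPM in C1. Its log2 fold change of −0.27 (edgeR adjusted p = 0.0291) was of the size of that of PIM1 and was likewise lost without V0 (edgeR adjusted p = 0.180), without V1 (edgeR adjusted p = 0.263) and on both FPKM scales (limma adjusted p = 0.137 and 0.136), and its adjusted p over all alternatives lay between 4.0e-04 and 0.263. The PIM1 paralogs PIM2 (−0.11, edgeR adjusted p = 0.509) and PIM3 (−0.03, edgeR adjusted p = 0.937) were not called. PIM1 made up 62.2% and 63.0% of the summed FPKM of the PIM genes in V0 and V1 and 59.1% and 60.6% in C0 and C1. CCND2, a D-type cyclin listed here as a STAT5 target, had a log2 fold change of 0.10 (edgeR adjusted p = 0.555) and CCND3 one of −0.07 (edgeR adjusted p = 0.724).

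Of 17 ID and BMP-SMAD genes, 14 were tested and 0 were called by edgeR, with 1 (7.14%, beside 14.2% of all genes tested) at an unadjusted p under 0.05 and a median of −0.081. That was BAMBI, a decoy receptor that dampens BMP and TGF-beta signalling, read at 33.6 CPM in V0, 38.4 CPM in V1, 27.9 CPM in C0 and 26.7 CPM in C1 (log2 fold change −0.41, edgeR adjusted p = 0.0547). BAMBI was called without C0 (−0.44, edgeR adjusted p = 0.0237) and without V0 (−0.50, edgeR adjusted p = 0.0258), with limma-voom (adjusted p = 0.0482), and under 4 other alternatives. SMAD6 (−0.25, edgeR adjusted p = 0.558) and SMAD7 (−0.35, edgeR adjusted p = 0.569), feedback inhibitors that BMP signalling induces together with ID1, had negative values that were not called. ID1 was not called either, and its difference from SMAD6 and SMAD7 was not tested.

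**Figure D4:**
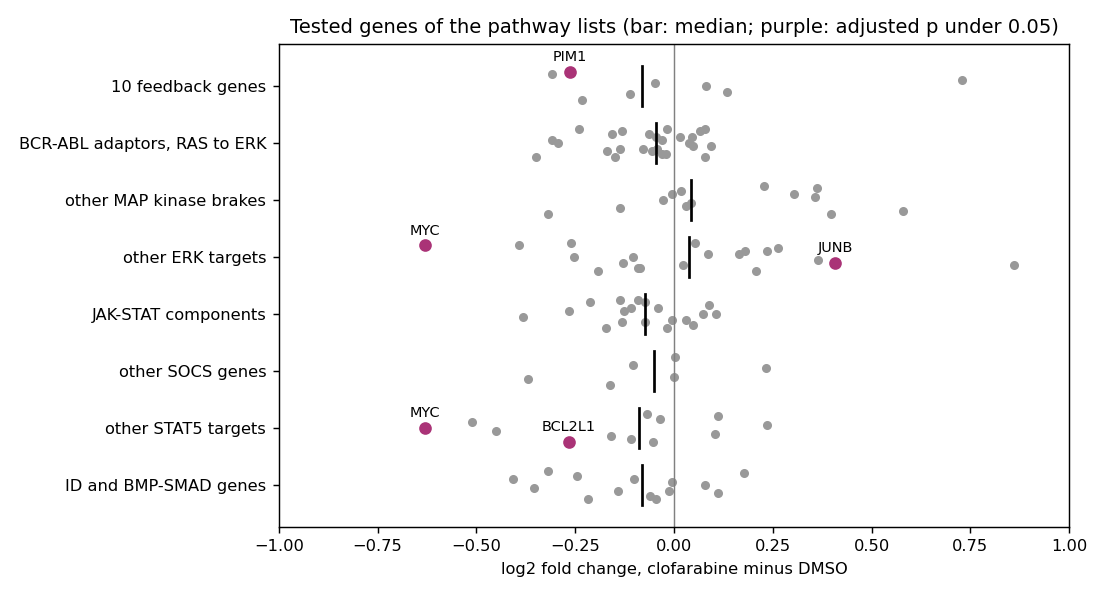
Log2 fold change of clofarabine against DMSO (horizontal axis) for every tested gene of the 10 feedback genes and of 7 lists of pathway genes (rows); each point is a gene, bars are list medians and purple points had an edgeR adjusted p under 0.05. All list medians lie between −0.088 and 0.043, and the purple points are PIM1, MYC (in 2 rows), BCL2L1 and JUNB.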

How the data were processed

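RNA-seq of 2 clofarabine and 2 DMSO samples was read from 1 table of the whole series. The submitters' processing notes name cutadapt 1.5, TopHat2 2.0.13, Cuffdiff 2.2.1 and build hg19, with annotation and strand setting not given in the sources used here. The deposited values are, per the file headers, estimated counts of fragments per gene, a signal of scaled fragments (1 factor per library) and the authors' FPKM. Counts were rounded (431 to 483 values changed per library), filtered with filterByExpr (minimum count 10), scaled by TMM and tested by edgeR 4.0.16 (R 4.3.3) on a group term alone, with Benjamini-Hochberg adjustment over 11761 genes. Standard errors came from the log2 fold change over the root of F, and 95% intervals use the moderated degrees of freedom. The script was tested on simulated data. Alternatives used DESeq2 1.42.0, limma 3.58.1 (voom, and log2 FPKM with a pseudocount of 1 or 0.1), other scalings and filters, equal depth, a length trend, left-out libraries and a block. The members and lists were chosen with earlier results of these data known. The text names all 10 members, every called gene of each list or otherwise its gene of smallest p, and relatives of the members. Further listed genes, such as ABL1, BCR, STAT5A, STAT5B, ETV4, ETV5, CCND2, CCND3, SMAD6 and SMAD7, were named outside these rules. Libraries of a group differed beyond sampling noise (chi-square over degrees of freedom 6.55 between C0 and C1, 2.73 between V0 and V1), so none were combined in the fits. Only the fragment ratio of DUSP4 summed the libraries of a group. Which library is which numbered replicate is not given.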

Additional observations from a re-analysis of the deposited data

How the results depend on the processing

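The number of genes called over the whole table was 302, and it was 478 with no filter, 168 with DESeq2, 476 once a length trend was removed, 56 on the log2(FPKM + 1) scale, 72 on the log2(FPKM + 0.1) scale, 128 at a threshold of 0.01, 466 at 0.1, and between 130 and 636 with a library left out (130 without V1, 636 without C0). The count of feedback genes called as lower, 1, was 0 on both FPKM scales and at a threshold of 0.01, and between 0 and 1 with a library left out; where a library is left out, the variance of the lone partner was taken from the opposite group. No alternative called a feedback gene as higher. The count of feedback genes without overlap was 7 under every scaling and, as an alternative chosen after seeing the data, on the deposited FPKM. In the 7 pathway lists, 3 counts of calls in 1 direction were above 0; of their 54 values under the alternatives 36 were equal to the reported count, 7 were higher and 11 lower. The other 11 counts were 0, and 14 of their 198 values were above 0. SPRY4 ran from −0.042 to 0.231 with a library left out; the other 7 tested genes kept their sign in all 16 alternatives. The cause of these differences was not tested. With the library number as a replicate block 796 genes were called, PIM1 among them, and in the lists also DUSP3 (edgeR adjusted p = 0.0104), ELK1 (0.00347), SOCS7 (0.037), BAMBI (0.0039), IER2 (0.0411), KLF1 (0.0277) and HBA1 (7.77e-04), but the numbers are not known to pair the samples (the deviations of C0 and V0 correlated at 0.034 over genes). Depth limits DUSP4 and DUSP6, which had at most 6 fragments in a library, and leaves DUSP5 with a wide interval.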

Other observations

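Besides the calls, 3 listed genes had an adjusted p under 0.1 in edgeR, BAMBI (adjusted p = 0.0547), HBA1 (adjusted p = 0.0616) and ELK1; HBA1 and ELK1 were chosen after their values were seen. ELK1, an ETS factor that ERK phosphorylates, was read at 115 CPM in V0, 121 CPM in V1, 92.9 CPM in C0 and 104 CPM in C1 (log2 fold change −0.26, SE 0.077, edgeR adjusted p = 0.0792). ELK1 was called under 5 alternatives, among them without C1 (−0.35, edgeR adjusted p = 0.00553), with library sizes alone (edgeR adjusted p = 0.0197) and with no filter (edgeR adjusted p = 0.0415). Both clofarabine libraries lay below both DMSO libraries.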
